A study of Homo sapiens with 6 samples.

Results

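The classical cadherins and the catenins that bind them were followed in MCF10A cells grown with and without growth factors. MCF10A is an established, non-tumorigenic line of human mammary epithelial cells. The 7 genes examined, CDH1, CDH3, CDH2, CDH11, CDH13, CTNNA1 and CTNND1, were chosen by name out of the 19198 genes of the RNA-Seq table, and all 7 were listed and passed the filter on low values. By the labels both groups held 3 samples, whereas the design text of the series counts 2 replicates for each and 6 samples in all, and the labels were followed. All cells were cultured in medium with 5% horse serum. The cells with growth factors also received 4 factors, namely 20 ng/ml of EGF, 10 µg/ml of insulin, 0.5 µg/ml of hydrocortisone and 100 ng/ml of cholera toxin, and the growth factor-depleted cells received none of them. For the time in depleted medium the study's methods give an upper limit of days, and they do not tie a day of RNA harvest to these samples. The labels do not say whether the replicates came from separate cultures, so p-values measure the spread between these samples, which may be technical. Samples of 1 group differed by more than sampling noise (chi-square per degree of freedom 28.7 to 331.5 for the pairs), which does not tell a culture from a library preparation.

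Cadherins are transmembrane proteins that hold neighbouring cells together through calcium-dependent contacts of their extracellular repeats. The tail of a classical cadherin binds p120-catenin near the membrane and β-catenin or plakoglobin further out, and α-catenin links the β-catenin-bound complex to actin. E-cadherin and P-cadherin are typical of epithelia, with P-cadherin mainly in basal mammary cells, whereas N-cadherin and cadherin-11 are typical of neural and mesenchymal cells, and an exchange of the first pair for the second is a classic feature of epithelial-mesenchymal transition (EMT).

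The values are normalized counts, which are reads per gene divided by a size factor for each sample. The samples held between 7472418 and 28672630 reads on genes, and 3 reads corresponded to 1.76 to 6.71 normalized counts. Among the depleted samples, replicate 1 stood apart in several epithelial genes. It had the lowest level of the 6 samples of CDH1, of EPCAM (153 normalized counts, against 887 to 3990 in the other samples) and of KRT5 (562, against 10908 to 38503). TP63 and LAMB3 were lowest there too. TP63, however, was low in all depleted samples (8.2, 64.9 and 42.5, against 271 to 1615 with growth factors). LAMB3 was at 8139 in depleted replicate 1, against 10331 to 21213 in the other samples. The other mammary epithelial and basal markers, KRT7, KRT8, KRT14, KRT17, KRT18, KRT19, ITGB4 and MUC1, were not lowest in this sample. KRT14 was highest there (980, against 12.8 to 306 in the others) and KRT18 (8660) was above every sample with growth factors. ITGB4 (13337) and MUC1 (1031) were the highest of the 3 depleted samples. The log2 fold changes of CDH1, CDH2, CDH3, CDH11 and CTNND1 and the difference in the cadherin ratio are given with and without this sample. The labels call the cells luminal ductal. Of 6 luminal markers only GATA3, ESR1 and FOXA1 were in the table, with a summed level of 672 to 1257 normalized counts with growth factors, against 369 to 795 without. The 6 basal markers KRT5, KRT14, KRT17, TP63, ITGB4 and LAMB3 were all listed, with a summed level of 49597 to 69171 with growth factors and 42262 to 157207 without. These sums are not comparable in size, since the luminal genes listed encode transcription factors and the basal list holds keratins. KRT7, KRT8 and KRT18 were counted with the mammary epithelial markers, and KRT7 alone was at 57118, 67336 and 19463 with growth factors. Which identity the cells had was not tested.

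Promoter windows were at hand for CDH2, which rose, and for CTNNA1, which was not called, and 1 of 2 windows of CDH2 and 1 of 4 of CTNNA1 are shown as the DNA before the start of a gene of either kind. Both come from RefSeq on GRCh38.p14, are 250 bases long and end at the base before an annotated transcription start. Both lie inside the spans that Gencode v44 gives these genes, which reach further upstream. The CDH2 window (chr18:28177131-28177380, minus strand) has 66% G and C. The CTNNA1 window (chr5:138753175-138753424, plus strand) has 80% G and C. Capitals mark the only match found, to the CCAAT box (CCAAT, or ATTGG on the other strand).
CDH2: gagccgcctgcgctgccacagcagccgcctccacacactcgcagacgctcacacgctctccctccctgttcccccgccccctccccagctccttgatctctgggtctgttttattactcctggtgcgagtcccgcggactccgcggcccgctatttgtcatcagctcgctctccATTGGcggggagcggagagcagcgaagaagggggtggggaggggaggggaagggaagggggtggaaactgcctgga
CTNNA1: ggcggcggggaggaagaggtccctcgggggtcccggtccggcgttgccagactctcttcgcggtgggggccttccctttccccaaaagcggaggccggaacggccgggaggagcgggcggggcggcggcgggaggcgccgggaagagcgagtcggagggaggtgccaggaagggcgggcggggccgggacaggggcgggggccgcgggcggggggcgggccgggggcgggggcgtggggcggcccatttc
Neither window holds CACCTG, a core that SNAI and ZEB repressors recognise (or CAGGTG), or TGTGGT, a core of RUNX sites (or ACCACA). Of 35116 promoter windows of this length, 17.5% hold CACCTG or its complement, 11.0% TGTGGT or its complement, and 32.0% CCAAT or its complement. These counts depend on the window, since the other CDH2 window and 2 of the other 3 CTNNA1 windows hold a CCAAT box and the last CTNNA1 window holds ACCACA. A match is a description of these letters and not a measured site.

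By limma with Benjamini-Hochberg adjustment over the 16988 genes tested, 3 of the 7 genes rose without growth factors and none fell (adjusted p under 0.05 and at least 2-fold). CDH2, CDH11 and CDH13 rose, and CDH1, CDH3, CTNNA1 and CTNND1 did not pass. Of all genes tested, 6.33% were called in either direction, 4.36% as higher and 1.97% as lower. The same 3 genes were higher in every depleted sample than in every sample with growth factors, as 13.5% of all genes tested were. None of the 7 was lower in every depleted sample, as 12.1% of all genes were. The median log2 fold change was 0.25 for the 7 genes and -0.03 for all genes tested.

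**Figure D1:**
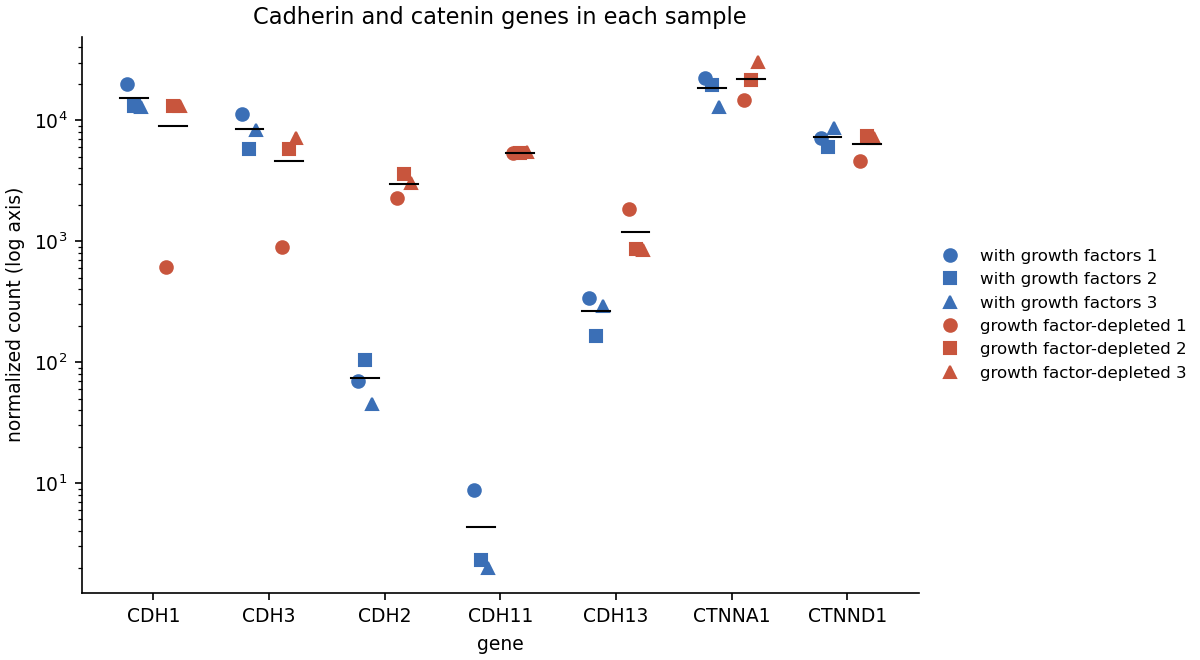
Normalized counts (log axis) of the 7 genes in each of the 6 samples, with a bar at each group's mean and 1 marker shape for each replicate number. CDH11, CDH2 and CDH13 separate the groups completely, while the groups overlap in CDH1 and CDH3, with depleted replicate 1 low at 610 and 888.

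CDH1 encodes E-cadherin, the main cadherin of epithelial adherens junctions, and lies on the plus strand of hg38 at chr16:68737292-68835537. It was at 20039, 13132 and 12961 normalized counts in the 3 samples with growth factors. In the depleted samples it was at 610, 13234 and 13118. Depleted replicates 2 and 3 thus lay among the samples with growth factors, and replicate 1 lay far below all others. As a share of the mean with growth factors, the depleted samples held 3.96%, 86.1% and 85.3%. The fitted log2 fold change was -1.67 with an SE of 1.07 (95% interval -4.10 to 0.76), and the limma test with Benjamini-Hochberg adjustment gave an adjusted p of 0.448. Without depleted replicate 1 it was -0.19 (limma, adjusted p = 0.875). With 666 reads on CDH1, the low sample was well above the limit of detection, and its exact 95% Poisson interval of 564 to 658 normalized counts, for counting error alone, lay under every other sample.

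CDH3 encodes P-cadherin and is the neighbour of CDH1 on the same strand, at chr16:68636189-68727468, with 9823 bases between them. Its levels were 11272, 5743 and 8388 normalized counts with growth factors. Without them they were 888, 5742 and 7070. The pattern was that of CDH1, with depleted replicate 1 apart at 10.5% of the mean with growth factors and the other two at 67.8% and 83.5%. For CDH3 the log2 fold change was -1.30 (SE 0.73, 95% interval -2.98 to 0.37, limma adjusted p = 0.38), and without depleted replicate 1 it was -0.36 (limma adjusted p = 0.739). In that sample CDH1 was at 4.70% and CDH3 at 15.5% of the lowest other sample. Of all genes tested, 97 (0.571%) were there at under 10% of every other sample, CDH1 among them. The same count was 162 for replicate 1 with growth factors, 65 and 42 for replicates 2 and 3 with growth factors, and 0 and 58 for depleted replicates 2 and 3. The flanking genes on either side were not called. Their log2 fold changes were 0.42 for ZFP90, -0.22 for TANGO6 and -0.53 for HAS3 (limma adjusted p = 0.47, 0.824 and 0.706), and SMPD3 was under the filter.

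CDH2 encodes N-cadherin and lies on the minus strand at chr18:27932879-28177946. With growth factors it was at 70.2, 105 and 45.3 normalized counts. Without them it was at 2284, 3594 and 3007. The groups were far from overlapping, and depleted replicate 1, the lowest in CDH1, was the lowest of the 3 depleted samples here as well. The mean rose 40.3-fold, from 73.4 ± 29.9 to 2962 ± 657 (SD, n = 3 samples in each group). The log2 fold change was 5.37 (SE 0.38, 95% interval 4.51 to 6.23, limma adjusted p = 4.2e-04), which ranks it 123 by size and 12 by p among the genes tested. Without depleted replicate 1 it was 5.55 (limma adjusted p = 0.00166).

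CDH11 encodes cadherin-11, first described in osteoblasts and common in mesenchymal cells, and lies on the minus strand at chr16:64943753-65126112. Its 3 samples with growth factors held 7, 4 and 2 reads, or 8.77, 2.34 and 1.97 normalized counts. The depleted samples were at 5314, 5340 and 5415 normalized counts. The gene was thus near the limit of detection with growth factors and was the least variable of the 7 genes without them, with a mean of 5356 ± 52.7 (SD, n = 3 samples). From the 13 reads summed over the samples with growth factors, the ratio of the groups was 1451, with an interval of 849 to 2725 for counting error alone (exact 95% Poisson). The fitted log2 fold change of 10.19 (SE 0.49, limma adjusted p = 1.4e-04) depends on the pseudocount and was 8.58 with a pseudocount of 10. It was the third largest of all genes tested. Without depleted replicate 1 it was again 10.19 (limma adjusted p = 7.3e-04). CDH2 and CDH11 were called in all 17 fits made, with adjusted p up to 0.00478 and 0.00217.

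CDH13 encodes T-cadherin, which is anchored to the membrane by a lipid and lacks the tail that binds catenins. It lies on the plus strand at chr16:82626965-83800640, and its span overlaps HSBP1 on the same strand. Whether their exons overlap was not examined, and how reads in overlapping genes were handled is not given. CDH13 was at 340, 165 and 293 normalized counts with growth factors. Without them it was at 1860, 854 and 838. Here depleted replicate 1, the lowest in CDH1 and CDH3, was the highest sample. The mean rose 4.45-fold, from 266 ± 90.3 to 1184 ± 585 (SD, n = 3 samples in each group), and the log2 fold change was 2.11 (SE 0.42, 95% interval 1.14 to 3.08, limma adjusted p = 0.0229). CDH13 kept its direction but lost the call in 4 of the 6 leave-one-out fits. The limma adjusted p was 0.069 without replicate 2 with growth factors, and 0.0557, 0.0632 and 0.0576 without depleted replicates 1, 2 and 3.

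CTNNA1 encodes α-catenin and lies on the plus strand at chr5:138610967-138935034. Its levels were 22405, 19727 and 12915 normalized counts with growth factors, against 14585, 21523 and 30317 in the depleted samples. The groups overlapped, with the highest and the second lowest of the 6 samples both depleted. The log2 fold change was 0.25 (95% interval -0.76 to 1.25, or 0.591-fold to 2.38-fold, limma adjusted p = 0.821), and changes inside that interval could not be resolved. CTNND1 encodes p120-catenin, which keeps cadherins at the cell surface, and lies on the plus strand at chr11:57753243-57819546. It was at 7110, 5955 and 8583 normalized counts with growth factors, against 4580, 7426 and 7121 in the depleted samples. These values overlapped too, with depleted replicate 1 the lowest. For CTNND1 the log2 fold change was -0.20 (95% interval -0.95 to 0.56, or 0.516-fold to 1.48-fold, limma adjusted p = 0.809), and without depleted replicate 1 it was 0.03 (limma adjusted p = 0.982).

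β-Catenin and plakoglobin take the other site on the cadherin tail. CTNNB1, the gene of β-catenin, was at 9492, 8007 and 5838 normalized counts with growth factors, against 14743, 14916 and 19448 in the depleted samples. All depleted samples were higher, but the gene was not called (log2 fold change 1.09, 95% interval 0.29 to 1.89, limma adjusted p = 0.116). DESeq2 on the recovered reads called it, at the same size. JUP, the gene of plakoglobin, was at 4039, 4733 and 4347 with growth factors and 2566, 5791 and 6375 without, and its groups overlapped (log2 fold change 0.06, 95% interval -0.83 to 0.95, limma adjusted p = 0.959).

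**Figure D2:**
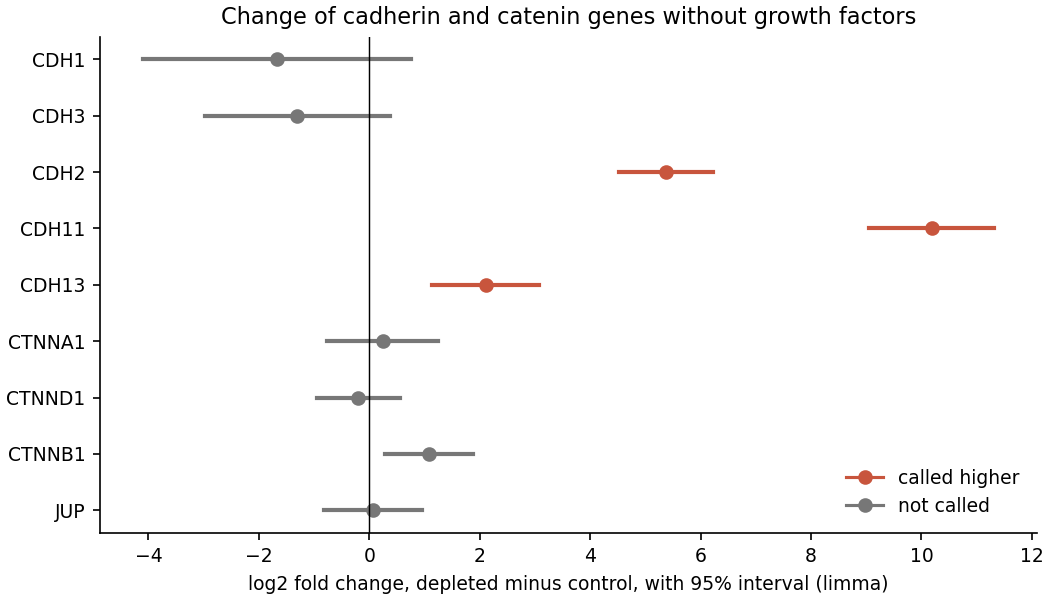
Log2 fold changes (depleted minus with growth factors) with 95% intervals from limma for the 7 genes and for CTNNB1 and JUP. The intervals of CDH1, CDH3, CTNNA1, CTNND1 and JUP cross 0, and that of CDH11 lies above 9.

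For comparisons between genes, normalized counts were divided by the length of each gene's merged exons in kilobases. With growth factors, CDH1 and CDH3 made up 99.8%, 99.6% and 99.8% of the summed level per kilobase of CDH1, CDH3, CDH2 and CDH11. In the depleted samples they made up 26.4%, 78.9% and 81.2%. CDH2 and CDH11 thus held most of the sum in depleted replicate 1 and 21.1% and 18.8% of it in replicates 2 and 3, against at most 0.403% with growth factors. The log2 ratio of CDH1 plus CDH3 to CDH2 plus CDH11, per kilobase, was 9.16, 7.95 and 9.31 with growth factors (8.81 ± 0.75, SD, n = 3 samples). It was -1.48, 1.91 and 2.11 in the depleted samples (0.84 ± 2.01, SD, n = 3 samples). The ratios did not overlap, and only depleted replicate 1 fell below 0, where the second pair was 2.79 times the first (4.17 times per canonical transcript length and 5.07 times without division by length). The means differed by -7.96, and by -6.80 without depleted replicate 1. These ratios are descriptions and were not tested.

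The components of this ratio did not move alike. The summed level of CDH2 and CDH11 per kilobase was 8.84, 12.4 and 5.42 with growth factors and 666, 821 and 758 in the depleted samples. The summed level of CDH1 and CDH3 was 5062, 3060 and 3445 with growth factors and 239, 3076 and 3265 without. In depleted replicates 2 and 3 the ratio therefore fell with the second pair higher and the first pair within the range with growth factors, and in replicate 1 both sums lay outside it. All 4 genes together summed to 5070, 3072 and 3451 per kilobase with growth factors and to 906, 3897 and 4023 without. In bulk RNA, fewer cells that express a gene and less of its RNA per cell cannot be told apart.

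**Figure D3:**
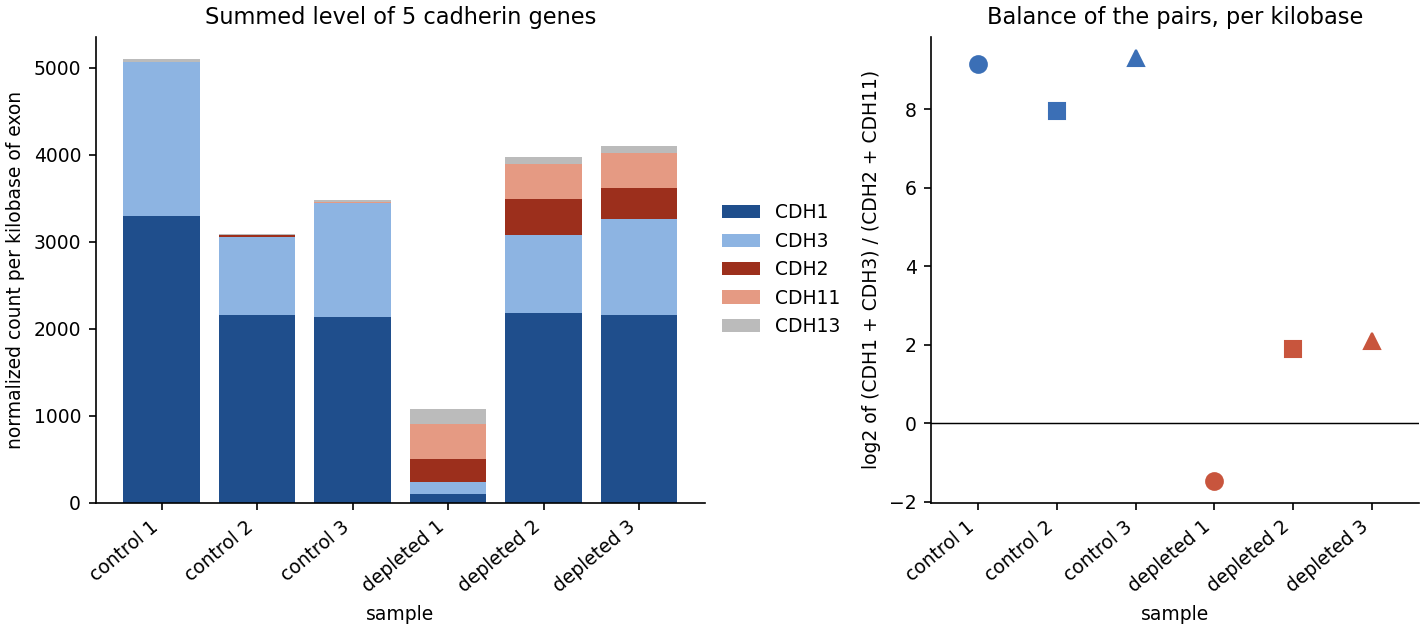
Left, normalized counts per kilobase of exon of 5 cadherin genes, stacked for each sample; right, the log2 ratio of CDH1 plus CDH3 to CDH2 plus CDH11 per kilobase. Depleted replicates 2 and 3 keep CDH1 and CDH3 near the level of replicates 2 and 3 with growth factors (control) and add CDH2 and CDH11, while the stack of depleted replicate 1 is the shortest.

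The ratio within each pair was compared next. The log2 ratio of CDH1 to CDH3 per kilobase was 0.90, 1.27 and 0.70 with growth factors and -0.47, 1.28 and 0.96 without, so CDH3 exceeded CDH1 only in depleted replicate 1. The log2 ratio of CDH2 to CDH11 was 3.63, 6.11 and 5.15 with growth factors and -0.59, 0.06 and -0.22 without. CDH2 was thus the more abundant of the pair with growth factors, where both were low and the ratios rest on 7, 4 and 2 reads of CDH11. In the depleted samples CDH11 was 1.50, 0.96 and 1.16 times CDH2 per kilobase. This depends on the division by length, since CDH11 was at 5314, 5340 and 5415 normalized counts there and CDH2 at 2284, 3594 and 3007. CDH13 made up 0.485% to 0.765% of the summed level per kilobase of the 5 cadherins with growth factors, and 15.7%, 1.95% and 1.86% in the depleted samples.

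The order of the 7 mean levels per kilobase with growth factors was CDH1 (2531 ± 665), CTNNA1 (2078 ± 554), CDH3 (1325 ± 433), CTNND1 (474 ± 86.6), CDH13 (24.1 ± 8.19), CDH2 (8.56 ± 3.49) and CDH11 (0.33 ± 0.29, all SD, n = 3 samples). Samples of CDH1 overlapped those of CTNNA1, and those of CTNNA1 overlapped CDH3, whereas every later neighbour was separate. The first place depends on the length used, since per kilobase of the canonical transcript CTNNA1 (4888 ± 1303) was above CDH1 (3196 ± 839, SD, n = 3 samples), with the other places as before. Without growth factors the order per kilobase was CTNNA1 (2508 ± 893), CDH1 (1479 ± 1194), CDH3 (714 ± 509), CTNND1 (419 ± 103), CDH11 (403 ± 3.97), CDH2 (345 ± 76.5) and CDH13 (107 ± 53.1). Neighbours in that order overlapped in every case except CDH2 and CDH13. CTNND1 amounted to 0.0922, 0.127 and 0.164 of the summed level per kilobase of the 4 classical cadherins with growth factors and to 0.333, 0.125 and 0.116 without. The highest of these ratios stood in depleted replicate 1, where the cadherin sum was lowest. The same ratio for CTNNA1 was 0.500, 0.727 and 0.424 with growth factors and 1.82, 0.625 and 0.853 without.

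Some markers of other cell types, those of fibroblasts among them, rose between the groups as CDH2 and CDH11 did. Of 8 fibroblast markers, all listed, 7 were tested and 5 rose (COL1A1, COL1A2, PDGFRA, PDGFRB and LUM), none fell, and the summed level was 804 to 1677 normalized counts with growth factors, against 13811 to 30316 without. Among all genes tested, 4.36% were called higher and 1.97% lower. LUM, the gene of the matrix protein lumican, was at 3.8, 0 and 1.0 with growth factors and at 5491, 2086 and 1981 without, highest in depleted replicate 1. COL1A2 (13005, 5971 and 4248 in the depleted samples) and PDGFRA (60.4, 34.1 and 53.7) were highest there too, unlike CDH2. So were PDGFRB (3322.5, 348.8 and 447.2) and DCN (4495, 449.1 and 480.7). COL1A1 (1999.9, 2835.1 and 675.3) and FAP (1939.5, 7411.6 and 5918.5) were not. THY1, a surface marker of fibroblasts, was at 0, 0 and 1.0 with growth factors and reached at most 6.7 without. Of 4 smooth muscle markers 3 were listed and 2 tested, ACTA2 rose, and the sum was 206 to 339 with growth factors and 2029 to 6614 without. Of 6 endothelial markers 4 were listed and 3 tested, and CDH5 rose, with sums of 167 to 1787 with growth factors and 265 to 1610 without. KDR went the other way without being called, from 778.3, 32.2 and 66.9 to 0, 24.9 and 22.4 (log2 fold change -3.83, limma adjusted p = 0.193). The groups overlapped in PECAM1 (log2 fold change 0.09, limma adjusted p = 0.981). Of 5 leukocyte markers 2 were listed and 1 tested, none was called, and the sum was at most 26.3 in either group. Of 6 mammary epithelial markers KRT19 fell and none rose, with sums of 27321 to 84733 with growth factors and 59671 to 113255 without. Of the 6 basal markers TP63 fell and none rose, and of the 3 luminal markers listed none was called. The part of other cell types in the levels of CDH2, CDH11 and CDH13 was not tested.

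The other genes of the adherens junction were read from 6 lists, of which 73 genes were tested, 14 rose and 2 fell, with a median log2 fold change of 0.04. For comparison with this count and each list below, 4.36% of all genes tested were called higher and 1.97% lower. Of 15 other classical cadherins 8 were listed and 5 tested, and 3 rose (median 3.37). CDH4 (retinal cadherin) was at 128, 17.6 and 0 normalized counts with growth factors, against 778, 932 and 935 in the depleted samples. CDH5 (endothelial cadherin) rose from 8.8, 4.1 and 4.9 to 25.6, 119 and 101, lowest among the depleted samples in replicate 1. CDH10 rose from 6.3, 0.6 and 0 to 82.4, 20.3 and 31.3. These changes passed near the threshold (limma adjusted p = 0.046, 0.0282 and 0.0368). The list of other catenins held 9 genes, among them CTNNBIP1, which is not itself a catenin. Of these, 7 were in the table and 6 tested, with a median of 0.39. Only CTNNBIP1 rose, and no catenin of the list was called. Its product blocks the binding of β-catenin to TCF factors (CTNNBIP1 log2 fold change 1.94, limma adjusted p = 0.0223).

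Of 14 scaffold and nectin genes, all tested, 3 rose and none fell (median 0.73). They were VCL (vinculin, which binds α-catenin under tension, log2 fold change 1.90, limma adjusted p = 0.0108), NECTIN3 (2.08, 0.0118) and AJUBA (1.57, 0.0128). Of 15 genes of cadherin shedding, phosphorylation and trafficking, FYN, a kinase of the SRC family, rose (2.13, limma adjusted p = 0.0358) and ADAM15, a membrane protease, fell by 1.82 on the log2 scale (limma adjusted p = 0.0194), with a median of -0.21. ADAM10, the main sheddase of E-cadherin and N-cadherin, did not pass (log2 fold change -0.30, limma adjusted p = 0.688) and is named after its value was seen. Of 18 non-classical cadherins listed out of 22, 16 were tested and 4 rose, with a median of 0.47. FAT3 and FAT4, giant cadherins, had log2 fold changes of 7.22 and 1.98 (limma adjusted p = 0.00349 and 0.05, the latter just under the threshold before rounding). PCDH10 and CLSTN2 were at 2 reads or fewer in every sample with growth factors, at or under the floor of 3 reads, and between 40.2 and 97.9 and between 31.3 and 61.3 normalized counts without (limma adjusted p = 0.00366 and 0.00639).

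All 17 genes listed as transcriptional regulators of CDH1 were tested, 2 rose and 1 fell, with a median of -0.46. ZEB1, a repressor of CDH1, was at 23.8, 23.4 and 48.2 normalized counts with growth factors, against 1087, 436 and 293 in the depleted samples (log2 fold change 4.06, limma adjusted p = 0.00488). It was highest in depleted replicate 1, the sample with the least CDH1, and it was also raised in replicates 2 and 3, whose CDH1 lay among the samples with growth factors. TCF4, which encodes the transcription factor E2-2 and was listed with the repressors, was at 346, 190 and 344 with growth factors. Without them it was at 1336, 1695 and 1212 (log2 fold change 2.30, limma adjusted p = 0.00568). SNAI1, another repressor of CDH1, fell by 3.14 on the log2 scale (limma adjusted p = 0.0079), from 147, 152 and 128 normalized counts to 18.3, 21.0 and 8.9. OVOL2, an activator of the epithelial state, was at 297, 276 and 224 with growth factors and at 3.7, 184 and 161 without, and was not called (limma adjusted p = 0.35).

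Of the 16 genes called in these lists, CLSTN2, FAT3, PCDH10, SNAI1, TCF4 and ZEB1 kept the call in all 6 leave-one-out fits, and the other 10 lost it in 1 to 5 of them. The count fell to 7 without depleted replicate 2 and to 6 without depleted replicate 3.

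**Figure D4:**
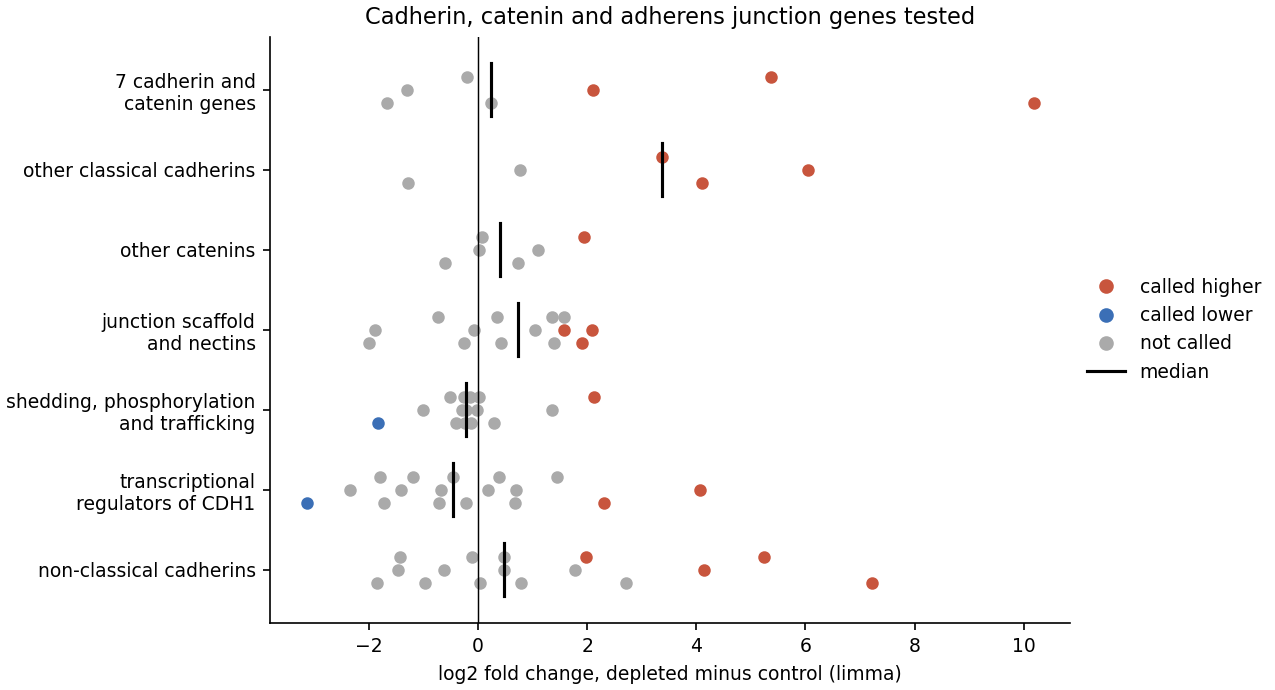
Log2 fold changes (depleted minus with growth factors, limma) of the 7 genes and of the genes tested in the 6 lists, 1 point a gene, with the median of each list as a bar. Called genes are coloured, and of the listed genes ADAM15 and SNAI1 alone were called lower.

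The genes most like each of the 7 in pattern were taken as the 3 with the highest Pearson correlation of log2 values over the 6 samples, among 10583 protein-coding genes whose mean normalized count was 100 or more. Such correlations over 6 samples are descriptions, and several follow mainly the difference between groups or the 1 low sample. Among those most like CDH1 were STX19 and OVOL2 (r = 0.996 and 0.993), of which OVOL2 encodes an epithelial transcription factor, and both were lowest in depleted replicate 1. CDH3 was most like KRT5, ITGB6 and APLP2 (r = 0.988 for each). CDH2 was most like NT5DC3, TIMP2 and GNG2 (r = 0.998, 0.997 and 0.996). CDH11 was most like EDIL3, WNT5B and MARCKS (r = 0.997, 0.997 and 0.996). EDIL3, which encodes a matrix protein, was at 21.3, 2.9 and 3.0 normalized counts with growth factors, against 4311, 6042 and 5699 in the depleted samples. CDH13 was most like LIMA1, PARD3B and SMARCA1 (r = 0.992, 0.991 and 0.991), all highest in depleted replicate 1, and LIMA1 encodes a protein that links α-catenin to actin. CTNNA1 was most like CDR2L, STX12 and SNAP23 (r = 0.998, 0.991 and 0.988), and CTNND1 was most like ANKRD49, RHOBTB3 and PBX3 (r = 0.988, 0.976 and 0.975).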

How the data were processed

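RNA-Seq values of MCF10A cells were analysed for 3 samples with growth factors and 3 without, grouped by the sample labels. The authors removed ribosomal RNA, sequenced strand-specific libraries as single reads of 100 bases, mapped them with TopHat2 to hg38, counted genes on Gencode v22 with HTSeq 0.6, and scaled the counts with size factors from DESeq2 1.8.1. The strand setting and the handling of reads in overlapping genes are not given in the sources used here. The deposited signal, a normalized count per gene, is not divided by length. Of the values, 100% were whole multiples of the value of 1 read (tolerance 0.001 reads), so reads could be recovered. Depth was 7472418 to 28672630 reads on genes. Poisson intervals and the floor of 3 reads cover counting error only, whereas limma intervals reflect the spread between samples.

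The groups were compared with limma 3.58.1 (R 4.3.3, trended eBayes) over the 16988 genes whose mean was 10 or more, as log2(normalized count + 1), a scale that understates changes of low genes. A call needed an adjusted p (Benjamini-Hochberg) under 0.05 and a 2-fold change. Alternatives are pseudocounts of 0.5 and 10, other filters and scalings, limma without a trend, a replicate block, each sample left out, and edgeR 4.0.16 and DESeq2 1.42.0 on the recovered reads. Only the main limma fit was tested on simulated counts, and the outcome is not given here. Names and exon lengths came from Gencode v44, which names 18913 of the 19198 genes. Of the 7 genes, RefSeq promoter windows were matched for CDH2 and CTNNA1.

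The 7 genes, the 6 lists and the marker lists were chosen with earlier results of these data known. Named are all 7 genes, the called genes of each list (at most 4 in each direction), CTNNB1 and JUP, the 3 genes most alike to each of the 7, and the neighbours of CDH3 and CDH1. Of these, 1 gene is not reported here. Other steps used Python 3.11.15, pandas 2.3.3, scipy 1.17.1 and matplotlib 3.10.9.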

Additional observations from a re-analysis of the deposited data

How the results depend on the processing

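The 3 calls among the 7 genes were the same under all 10 alternatives of scaling, filter, pseudocount, trend, tool and replicate block, and numbered 2 or 3 when a sample was left out, with CDH13 the gene lost. Over all genes, 1076 were called, with 971 by edgeR, 2112 by DESeq2 and 453 to 2474 without 1 sample (634, 675 and 2474 without replicates 1, 2 and 3 with growth factors, 453 and 467 without depleted replicates 2 and 3). In the 6 lists 16 were called, with 25 by DESeq2, 10 at a mean of at least 50, where CDH5, CDH10, PCDH10 and CLSTN2 were not tested, and 6 to 21 without 1 sample. CDH4, FAT4, FYN, CDH10 and CDH5 lost the call in 5, 4, 2, 2 and 1 of the other alternatives.

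The log2 fold change of CTNNA1 turned to -0.01 without depleted replicate 3 (range without 1 sample -0.01 to 0.52), that of CTNND1 to 0.03 without depleted replicate 1 (-0.33 to 0.03), and that of JUP to -0.11 and -0.18 without depleted replicates 2 and 3 (-0.18 to 0.48); the cause was not tested. That of CDH1 was -2.41 to -0.19 and that of CDH3 -1.85 to -0.36 without 1 sample. On the recovered reads CDH1 was at -0.73 by edgeR and -0.76 by DESeq2, which average counts rather than log values.

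The difference in the cadherin balance was -7.96, with -11.91 for CDH3 to CDH11 alone, -7.06 for CDH1 to CDH2 alone, -8.30 without division by length, -9.27 for mean log2 values, -7.89 per canonical transcript length (an alternative chosen after seeing the data) and -8.59 to -6.80 without 1 sample. With the replicate block 967 genes were called, 3 of the 7 genes among them, but no sign was seen that the numbers pair the samples. Deviations of same-numbered samples correlated at -0.07, -0.28 and -0.32, and no sample with growth factors correlated best with its own number. These deviations were taken from means of 3 samples and cannot exclude a pairing. Per canonical transcript, also chosen after seeing the data, the log2 ratio of CDH1 to CTNNA1 moved from 0.28 to -0.61 with growth factors and from -0.76 to -1.66 without. Scaling moved the median of all genes to between -0.08 and 0.02. At 3 samples a group an exact permutation test cannot go below p = 0.1, and depth limits CDH11 with growth factors, at 13 reads in all.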
